A study of Mus musculus with 6 samples.

Results

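The 10 genes described here encode the interleukin 1 (IL-1) family of cytokines and the inflammasome that matures them. They were taken by symbol from the count and TPM tables of the series (Il1a, Il1b, Il1rn, Il18, Il1rap, Nlrp3, Pycard, Casp1, Casp4 and Gsdmd), and all 10 were found among 55487 genes. The cells were primitive macrophages, the first macrophages of the embryo and the source of microglia, made from mouse embryonic stem cells. The tested cells came from Ts1Cje stem cells, a mouse model of Down syndrome with an extra copy of the distal part of chromosome 16, and were set against cells from wild-type stem cells. Both genotypes were kept as stem cells with LIF and then induced for 12 days with the cytokines M-CSF, IL-3 and SCF and the growth factors FGF2, VEGF, BMP-4 and activin A. The protocols name no inflammatory stimulus. Each genotype had 3 libraries, made from 450 ng of total RNA. The labels number them as lots and the design text speaks of different cells, without saying whether a lot is its own line or its own differentiation. The p-values therefore describe the spread among these libraries, part of which may be technical. The stated purpose was to learn why Ts1Cje embryos have a reduced number of microglia.

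IL-1 alpha and IL-1 beta are inflammatory cytokines that signal through the same receptor, which needs the accessory chain encoded by Il1rap. The product of Il1rn binds that receptor without activating it and so blocks both. IL-1 beta and IL-18 are made as inactive precursors and are cut by caspase-1, which is activated when a sensor such as NLRP3 assembles with the adaptor ASC (the product of Pycard). Caspase-1 and the caspase encoded by Casp4, which senses lipopolysaccharide inside the cell, also cut gasdermin D, whose fragment forms pores through which the cytokines leave. In resting macrophages the genes for IL-1 beta and NLRP3 are known to be low and are induced through NF-kappaB when Toll-like receptors are engaged, while IL-18 is made without such a signal. RNA was measured here; cleavage and secretion were not.

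Total counts were 26146044 to 32658148 in Ts1Cje libraries and 25484294 to 26372632 in wild-type libraries. All 10 macrophage markers examined passed the filter on low counts. They summed to 8990 to 17760 CPM in Ts1Cje and 7733 to 17650 CPM in wild-type libraries. A large part of this sum was Lyz2, which alone had 3249 to 11565 CPM in Ts1Cje and 2298 to 10372 CPM in wild-type libraries. By the fitted fold 5 of the 10 markers were higher and 5 lower in Ts1Cje. Adgre1 had the smallest fitted difference of the 10, at 981 to 1380 CPM in Ts1Cje and 1103 to 1304 CPM in wild-type libraries. Other markers were less even: Csf1r, Mertk and Cx3cr1 were highest in wild-type replicate 1, where Itgam was lowest. CPM are counts divided by each library's total after TMM scaling. Neutrophils, a rich source of IL-1 beta and of the antagonist, left little trace. Of 10 neutrophil markers, 9 were under 1 CPM in every library, Ly6g and Retnlg had no count, and the list summed to 0.633 to 2.01 CPM in Ts1Cje and 0.225 to 1.68 CPM in wild-type libraries. Epithelial markers summed to 4.603 to 7.37 CPM in Ts1Cje libraries, against 0 to 20.2 CPM in wild-type libraries, with the highest sum in wild-type replicate 1. Other lists summed higher. Endothelial markers summed to 30.9 to 65.0 CPM in Ts1Cje and 12.7 to 52.8 CPM in wild-type libraries, mostly from Kdr and Tie1. Mast cell and megakaryocyte markers summed to 44.2 to 145 CPM in Ts1Cje and 34.7 to 187 CPM in wild-type libraries. Nearly all of this sum was Pf4 in every library. Of these 8 markers, 6 were under 1 CPM in every library, and Ms4a2, Fcer1a and Mcpt8 had no count. Mesenchymal markers summed to 7.40 to 54.1 CPM in Ts1Cje and 6.58 to 23.7 CPM in wild-type libraries. Dendritic cell markers summed to 2.53 to 7.96 CPM in Ts1Cje and 4.97 to 14.8 CPM in wild-type libraries. The part of these cells in the results was not tested. Wild-type replicate 1 also stood apart from the other 5 on the first principal component, at 88.2 against -38.7 to 18.7.

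The 4 ligand genes and the caspase gene Casp1 carry most of what follows, and the sequence before the start of 4 of these genes is shown to set the neighbours apart. Il1a (chr2:129299610-129309972) and Il1b (chr2:129364570-129371139) lie 54598 bases apart on the minus strand in mm10, and Il1rn (chr2:24336853-24351494, plus strand) lies 104.9 Mb away on the same chromosome. Casp1 (chr9:5298508-5307290) ends 1538 bases before Casp4 (chr9:5308828-5336783), both on the plus strand. The windows run from 250 to 11 bases before the RefSeq start of transcription (build GRCm38.p6), 5′ to 3′ along the gene, and capitals mark matches to the motifs named below.
Il1a, chr2:129309983-129310222, minus strand: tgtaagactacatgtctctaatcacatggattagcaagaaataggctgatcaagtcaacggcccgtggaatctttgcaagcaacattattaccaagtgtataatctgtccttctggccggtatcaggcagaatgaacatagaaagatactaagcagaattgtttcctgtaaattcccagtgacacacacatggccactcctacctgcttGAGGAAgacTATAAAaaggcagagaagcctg
Il1b, chr2:129371150-129371389, minus strand: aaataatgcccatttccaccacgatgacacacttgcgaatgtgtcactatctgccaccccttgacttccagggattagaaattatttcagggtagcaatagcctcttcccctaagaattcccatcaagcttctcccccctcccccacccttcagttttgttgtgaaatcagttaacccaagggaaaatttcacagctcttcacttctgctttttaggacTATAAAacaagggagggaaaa
Il1rn, first start, chr2:24336610-24336849, plus strand: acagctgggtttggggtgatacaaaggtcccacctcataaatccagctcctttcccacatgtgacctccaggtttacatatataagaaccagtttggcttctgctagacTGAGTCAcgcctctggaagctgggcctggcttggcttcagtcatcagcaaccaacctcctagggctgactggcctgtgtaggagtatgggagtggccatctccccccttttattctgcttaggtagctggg
Casp1, chr9:5298267-5298506, plus strand: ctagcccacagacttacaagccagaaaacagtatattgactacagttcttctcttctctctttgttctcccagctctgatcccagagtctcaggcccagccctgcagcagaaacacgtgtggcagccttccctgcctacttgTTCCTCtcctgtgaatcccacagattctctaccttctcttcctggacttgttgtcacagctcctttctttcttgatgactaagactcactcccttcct

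The motifs searched on both strands were TATAAA (the TATA box), GAGGAA (a core bound by the macrophage factor PU.1), TGANTCA (AP-1), the interferon-stimulated response element and the kappaB consensus. Among 32851 windows of this length they were found in 12.1%, 22.3%, 6.58%, 2.87% and 6.96%. The agonist genes Il1a and Il1b both had the TATA box, 32 and 31 bases before the start, and Il1a also had the PU.1 core 41 bases before it. Il1rn had neither, but an AP-1 match 141 bases before its first start and no match in the windows of its other two starts. Casp1 had 1 PU.1 core, on the other strand. Windows were at hand for 9 of the 10 genes, and Gsdmd was not searched. PU.1 cores were also found for Pycard, with 1, and before the second start of Nlrp3, with 3. Il18 also had a TATAAA match, 175 bases before its start and on the other strand. The kappaB consensus matched upstream of Casp4 and, before its first start, of Nlrp3. Casp4 had 3 kappaB matches before its first start, at 93, 92 and 39 bases. Those at 93 and 92 overlap in 1 stretch. The site of the first match is shown with the bases around it.
Casp4, chr9:5308746-5308775, plus strand: atgagttacaGGGGATTTCCccacagcagt
A match describes letters in a window, and binding was not measured.

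Across the 10 genes no difference between genotypes passed the threshold. The test was edgeR's quasi-likelihood test on raw counts, with p adjusted by the Benjamini-Hochberg method over 13821 genes, and 0 of the 10 genes had an adjusted p under 0.05, where 0.00724% of all genes tested did. DESeq2 and limma-voom also called 0 of them, where DESeq2 called 0.268% of all genes and limma-voom 1 of 13821. In edgeR 1 of the 10, Casp1, had an unadjusted p under 0.05, where 5.79% of all genes did (2.99% higher and 2.8% lower in Ts1Cje). All 10 passed the filter on low counts. Of them 6 had a positive log2 fold change (higher in Ts1Cje) and 4 a negative one, with a median of 0.09, while 49.2% of all genes tested were positive with a median of -0.0075. The sign of Il1rap, at 0.0015, flipped under RLE or upper-quartile scaling.

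**Figure D1:**
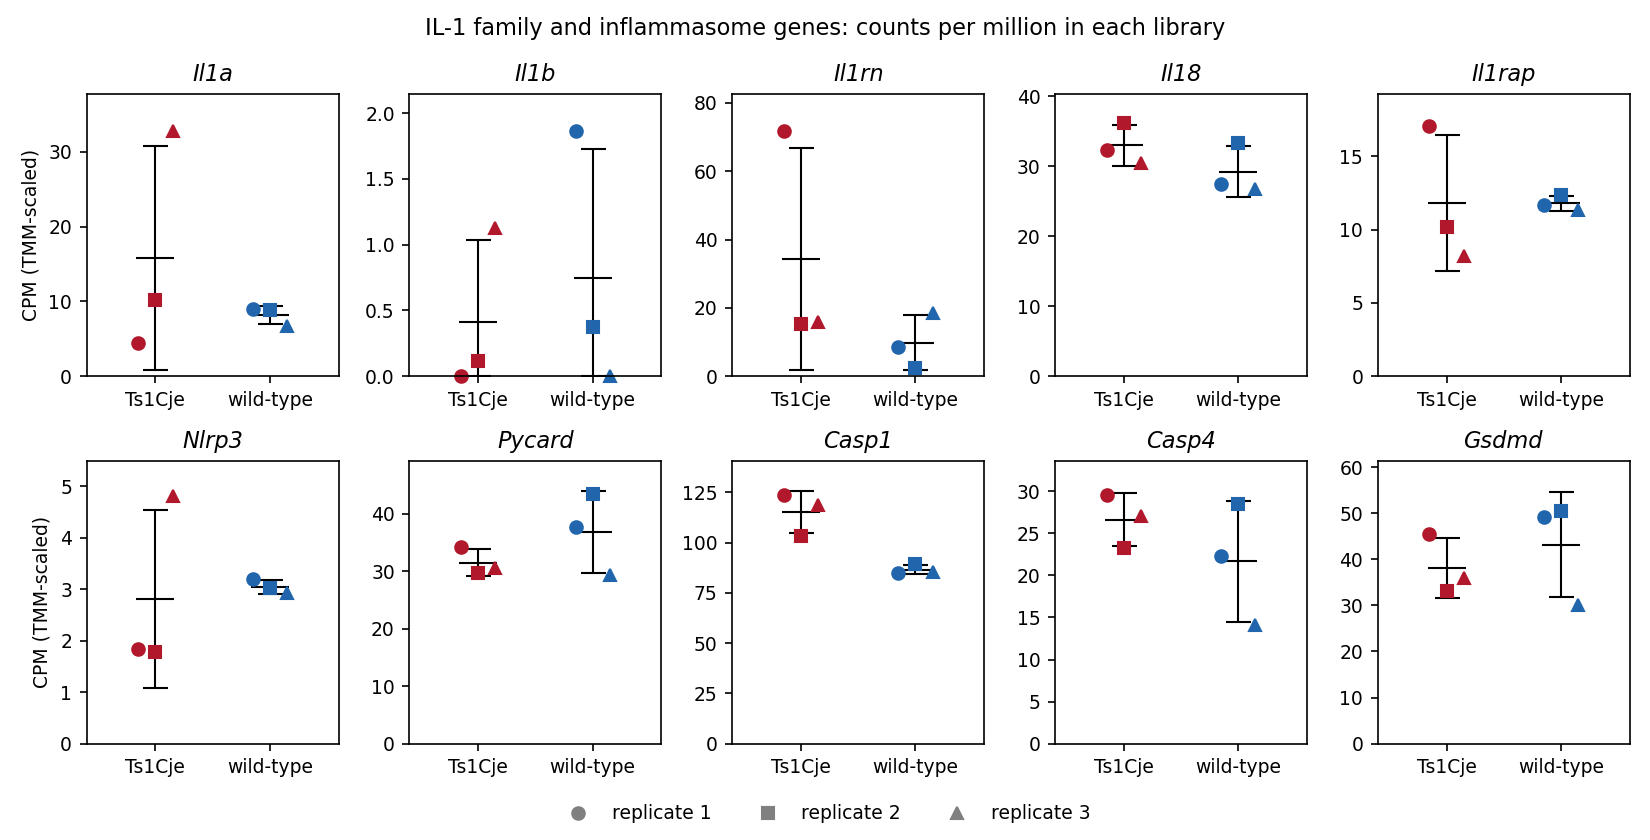
CPM (TMM-scaled) of the 10 genes in each Ts1Cje (red) and wild-type (blue) library, with a marker shape for each replicate number and black lines for the mean and SD (n = 3; bars end at 0). Casp1 alone separates the genotypes, while Il1rn and Il1a are each high in a single Ts1Cje library.

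Il1rn, the receptor antagonist, had the highest fitted fold of the 10 genes. It had 71.7, 15.4 and 15.8 CPM in Ts1Cje replicates 1 to 3, against 8.62, 2.32 and 18.4 CPM in wild-type replicates 1 to 3. Ts1Cje replicate 1 lay far above the rest, and wild-type replicate 3 lay above the other two Ts1Cje libraries, so that the groups overlap. edgeR gave a log2 fold change of 1.81 ± 0.84 (SE; unadjusted p = 0.0651, adjusted p = 0.792). Without Ts1Cje replicate 1 it was 0.67 ± 0.73, while leaving out wild-type replicate 3 gave 2.66 ± 0.92 (adjusted p = 0.244). Leaving out that library gave 2347 of 14620 genes an unadjusted p under 0.05, against 800 of 13821 with all libraries. Across all 6 libraries Il1rn spanned 30.9-fold. The SD of its log2 CPM, 1.597, was at the 96.7 percentile of the genes tested, whose median SD was 0.35.

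Il1a, an agonist that is active also as a precursor, was high in another library. It had 4.41, 10.2 and 32.8 CPM in Ts1Cje replicates 1 to 3, against 8.94, 8.82 and 6.76 CPM in wild-type replicates 1 to 3. The wild-type libraries lay close together, within 1.32-fold, and the Ts1Cje libraries spanned 7.43-fold on both sides of them. Between genotypes it differed by a log2 fold change of 0.95 ± 0.64 (SE; adjusted p = 0.813, edgeR), and it was -0.17 ± 0.42 without Ts1Cje replicate 3. An antisense gene, Gm14023, overlaps Il1a over 8217 bases and had 4 to 18 counts in Ts1Cje and 0 to 20 in wild-type libraries, where Il1a had 149 to 961 and 180 to 236. No source used here says whether the counting used strand.

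Il1b, the agonist that the inflammasome matures, was near the limit of detection. Its counts were 0, 3 and 33 in Ts1Cje replicates 1 to 3, against 46, 10 and 0 in wild-type replicates 1 to 3. Each genotype thus had a library with no count, and a count of 0 allows up to 0.0888 CPM in Ts1Cje replicate 1 and 0.113 CPM in wild-type replicate 3 (3 counts, counting error only). The log2 fold change of -0.85 ± 1.71 (SE; adjusted p = 0.931, edgeR) rests on these few counts. It was 1.11 without wild-type replicate 1 and -3.70 without Ts1Cje replicate 3. The library with the most Il1b, wild-type replicate 1, is the one that stood apart over all genes; the part of that in this value was not tested.

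Il18 was the ligand with the most even level. It had 32.4, 36.2 and 30.4 CPM in Ts1Cje replicates 1 to 3, against 27.5, 33.4 and 26.8 CPM in wild-type replicates 1 to 3, a range of 1.35-fold over all libraries. Its log2 fold change was 0.18 ± 0.16 (SE; adjusted p = 0.844, edgeR), and the groups overlap. With 1 library left out it lay between 0.11, without Ts1Cje replicate 2, and 0.27, without wild-type replicate 2. The SD of its log2 CPM was 0.17, at the 14.7 percentile of the genes tested. Il18 overlaps Tex12 and Bco2 on the opposite strand, which had at most 37 and 181 counts in any library, against 680 or more of Il18.

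The antagonist and the agonists of the IL-1 receptor can be set against each other per length, in TPM. Il1rn had 40.1, 8.57 and 7.89 TPM in Ts1Cje replicates 1 to 3, against 4.55, 1.26 and 10.2 TPM in wild-type replicates 1 to 3. The sum of Il1a and Il1b was 6.91, 16.1 and 47.7 TPM in Ts1Cje replicates 1 to 3, against 16.1, 14.0 and 10.5 TPM in wild-type replicates 1 to 3, and Il1a made up 96.6% or more of it in Ts1Cje and 82.3% or more in wild-type libraries. The ratio of antagonist to agonist TPM was 5.80, 0.532 and 0.166 in Ts1Cje replicates 1 to 3, against 0.283, 0.0898 and 0.973 in wild-type replicates 1 to 3. Within Ts1Cje the library with the most antagonist had the least agonist. On the log2 scale the ratio averaged -0.32 ± 2.62 in Ts1Cje and -1.78 ± 1.72 in wild-type libraries (SD, n = 3 each). The difference of 1.46 gave p = 0.5 in an exact two-sided permutation test, in which 3 against 3 can give no p below 0.1. Without Ts1Cje replicate 1 the difference was 0.03, without wild-type replicate 2 it was 0.61, and without Ts1Cje replicate 3 or wild-type replicate 3 it was 2.59 or 2.33. The TPM divide by the union of all exons, 5535 bases for Il1rn, where its longest coding transcript has 2474 in GENCODE M21. Taken per base of that transcript the log2 ratios were 3.70, 0.24 and -1.45 in Ts1Cje and -0.76, -2.34 and 1.12 in wild-type replicates 1 to 3. Another length shifts every library by nearly the same amount, so the level of antagonist over agonist depends on the length used.

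**Figure D2:**
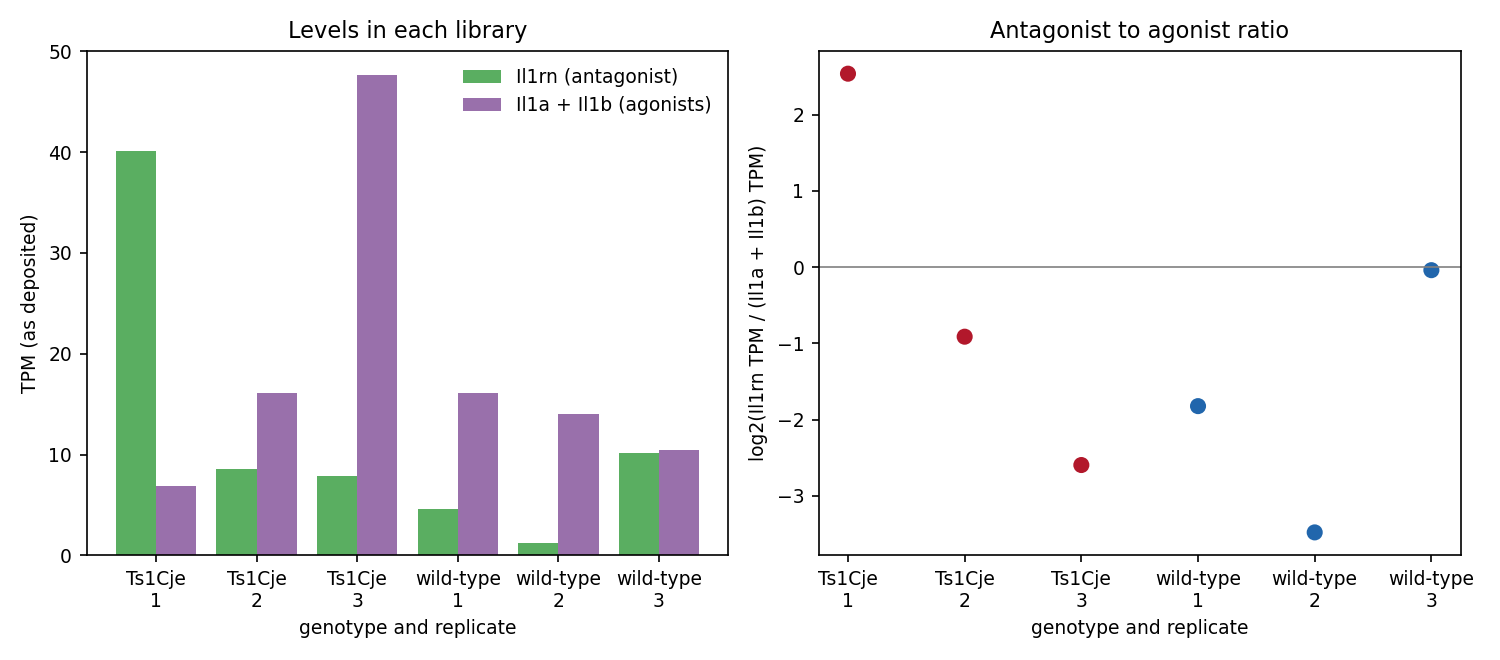
Left, TPM as deposited of Il1rn (green) and of Il1a plus Il1b (purple) in each library; right, the log2 of their ratio, with Ts1Cje in red and wild-type in blue. The highest antagonist (40.1 TPM) and the highest agonist sum (47.7 TPM) fall in different Ts1Cje libraries, and the ratios of the genotypes overlap.

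Il1rap, the chain that the receptors for IL-1, IL-33 and IL-36 share, lies on chromosome 16 (chr16:26581704-26730117). It is 63.5 Mb before Sod1 and thus outside the extra segment, which begins beyond Sod1. It had 17.0, 10.2 and 8.18 CPM in Ts1Cje replicates 1 to 3, against 11.7, 12.4 and 11.3 CPM in wild-type replicates 1 to 3. The wild-type libraries agreed within 1.09-fold and lay inside the Ts1Cje range. The means were 11.8 ± 4.64 CPM in Ts1Cje and 11.8 ± 0.521 CPM in wild-type libraries (SD, n = 3 each), a log2 fold change of 0.0015 ± 0.30 (SE; adjusted p = 0.999, edgeR).

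Receptor genes of the family were described from a list of 9. Il1r1, the signalling receptor for IL-1, had 0.201, 0.542 and 0.0891 TPM in Ts1Cje replicates 1 to 3, against 0, 0.353 and 0 TPM in wild-type replicates 1 to 3. Il1r2, a decoy that binds IL-1 without signalling, was at 0.765 TPM or less in 5 libraries and at 0.842 TPM in wild-type replicate 3. Il18r1, the ligand-binding chain of the IL-18 receptor, had no count in any library, which allows up to 0.0888 to 0.112 CPM in Ts1Cje and 0.112 to 0.121 CPM in wild-type libraries. Il18rap, which pairs with Il18r1 and not with Il1rap, had 6.45, 1.19 and 0.750 CPM in Ts1Cje replicates 1 to 3, against 2.59, 1.20 and 2.25 CPM in wild-type replicates 1 to 3. Of 9 receptor genes listed, 6 were tested, 3 positive and 3 negative. Of the 6, 0 passed edgeR, where 0.00724% of all genes did, and DESeq2 called 0, where it called 0.268% of all genes. An unadjusted edgeR p below 0.05 was found for 0 of the 6, where 5.79% of all genes had one, so 0 is near these shares. Il1rl1, the receptor for IL-33, had 2.87, 0.783 and 1.37 TPM in Ts1Cje replicates 1 to 3, against 1.77, 1.92 and 0.949 TPM in wild-type replicates 1 to 3. The smallest p was that of Il1rl2, the receptor for IL-36, which had 0.672, 1.80 and 0.680 TPM in Ts1Cje replicates 1 to 3, against 1.91, 3.38 and 1.03 TPM in wild-type replicates 1 to 3. In wild-type replicate 2 its TPM exceeded that of Il1rap, which had 3.27 TPM there, but in CPM Il1rap was above Il1rl2 in every library. The TPM of Il1rap divide by 11360 bases, where its longest coding transcript has 4520, so this order may depend on the length used. In CPM Il1rl2 was at 2.38 ± 1.39 CPM in Ts1Cje and 4.80 ± 2.70 CPM in wild-type libraries (SD, n = 3 each; log2 fold change -1.02 ± 0.58, SE).

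Of the other ligands and binding proteins, 1 of 7 was tested. Il18bp, a secreted protein that neutralises IL-18, had 9.85, 12.1 and 34.9 CPM in Ts1Cje replicates 1 to 3, against 34.1, 17.6 and 3.76 CPM in wild-type replicates 1 to 3. The libraries of each genotype spanned a wide range, and the log2 fold change was 0.04 ± 0.76 (SE; adjusted p = 0.993, edgeR). Il33 had 6 counts in Ts1Cje replicate 1 and 0 elsewhere, and the 4 IL-36 genes and Il1f10 had no count.

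Nlrp3, the sensor, had the lowest mean TPM of the 5 inflammasome genes among the 10, with Pycard, Casp1, Casp4 and Gsdmd above it. It had 1.83, 1.79 and 4.81 CPM in Ts1Cje replicates 1 to 3, against 3.20, 3.03 and 2.93 CPM in wild-type replicates 1 to 3. The wild-type libraries were within 1.09-fold and the Ts1Cje libraries lay on either side, with the highest value in replicate 3, where Il1a too was highest. The log2 fold change was -0.12 ± 0.48 (SE; adjusted p = 0.968, edgeR), and without Ts1Cje replicate 1 or 2 it turned to 0.12.

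Pycard, the adaptor, had 34.3, 29.8 and 30.6 CPM in Ts1Cje replicates 1 to 3, against 37.8, 43.5 and 29.3 CPM in wild-type replicates 1 to 3. All Ts1Cje values fell between the lowest and the other two wild-type values, and the log2 fold change was -0.23 ± 0.18 (SE; adjusted p = 0.831, edgeR). It was -0.10 without wild-type replicate 2 and -0.36 without wild-type replicate 3 (adjusted p = 0.336). The latter fit had 2347 of 14620 genes with an unadjusted p under 0.05, against 800 of 13821 with all libraries.

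Casp1, the caspase that matures IL-1 beta and IL-18, was the only member whose genotypes did not overlap. It had 124, 103 and 119 CPM in Ts1Cje replicates 1 to 3, against 84.9, 89.1 and 85.4 CPM in wild-type replicates 1 to 3. Ts1Cje values all exceeded the wild-type ones, and the spread within a genotype was small, at 1.20-fold in Ts1Cje and 1.05-fold in wild-type libraries. The means were 115 ± 10.5 CPM in Ts1Cje and 86.5 ± 2.31 CPM in wild-type libraries (SD, n = 3 each). The fitted fold was 1.33, a log2 fold change of 0.41 ± 0.13 (SE), with an unadjusted p of 0.0124 and an adjusted p of 0.792 (edgeR). The log2 fold change lay between 0.36 and 0.49 in all 16 other fits, and the smallest adjusted p among them was 0.244, without wild-type replicate 3. In that fit 2347 of 14620 genes had an unadjusted p under 0.05, against 800 of 13821 with all libraries, so the lower value is not particular to Casp1. Groups did not overlap for 12.1% of all genes tested with Ts1Cje above for 6.38% and below for 5.72%, so 1 gene of 10 is near the share found over all genes.

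Casp4 had 29.5, 23.3 and 27.1 CPM in Ts1Cje replicates 1 to 3, against 22.3, 28.5 and 14.1 CPM in wild-type replicates 1 to 3. Wild-type replicate 2 lay inside the Ts1Cje range and wild-type replicate 3 was the lowest library. Its log2 fold change was 0.30 ± 0.27 (SE; adjusted p = 0.838, edgeR), and it was 0.07 ± 0.20 without wild-type replicate 3 and 0.54 ± 0.26 without wild-type replicate 2. The neighbours Casp1 and Casp4 thus differed in how their libraries were ordered.

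Gsdmd, the pore-forming protein that both caspases cut, had 45.5, 33.1 and 35.9 CPM in Ts1Cje replicates 1 to 3, against 49.1, 50.4 and 30.1 CPM in wild-type replicates 1 to 3. The lowest library was again wild-type replicate 3, and the other two wild-type libraries lay above all Ts1Cje libraries. Its log2 fold change was -0.18 ± 0.24 (SE; adjusted p = 0.892, edgeR). With 1 library left out it lay between -0.06, without wild-type replicate 2, and -0.38, without wild-type replicate 3. It was -0.08 without Ts1Cje replicate 2, -0.09 without wild-type replicate 1 and -0.32 without Ts1Cje replicate 1. Wild-type replicate 3 was the lowest of all libraries for Il18, Pycard, Casp4 and Gsdmd, whereas it had the highest wild-type Il1rn.

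**Figure D3:**
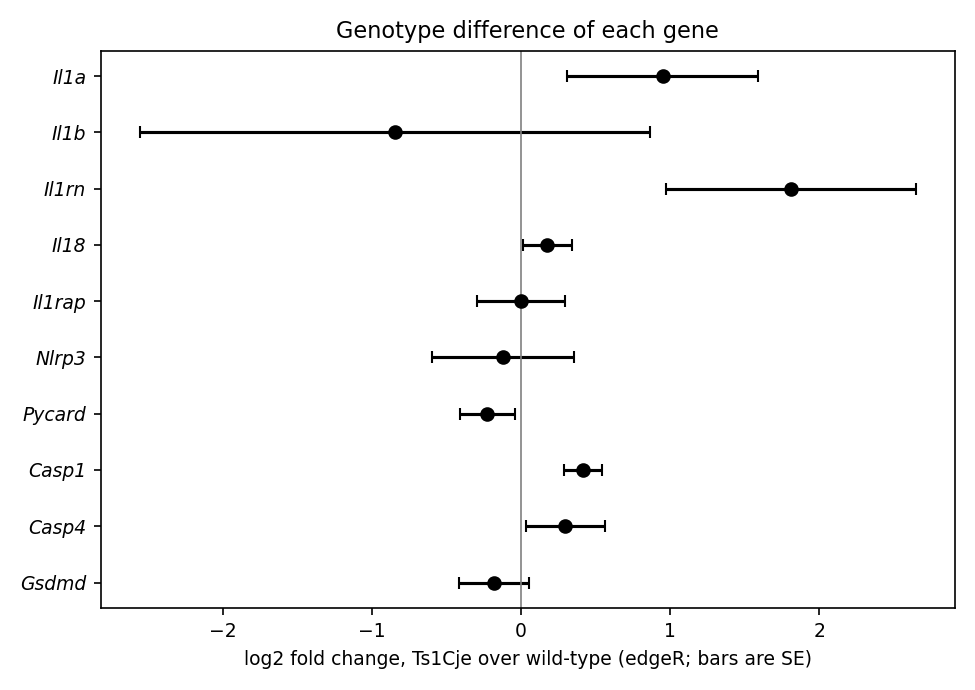
Log2 fold change of Ts1Cje over wild-type for each gene, from edgeR on all 6 libraries, with bars of 1 SE. Casp1, at 0.41 ± 0.13, is 1 of 6 positive values, and Il1b and Il1rn have the widest bars.

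Ordered by mean TPM over all libraries, the genes ran from Casp1 at 96.0 and Il18 at 90.3 TPM, through Gsdmd at 51.1, Pycard at 26.9, Casp4 at 19.4, Il1a at 17.7 and Il1rn at 12.1, to Il1rap at 3.12, Nlrp3 at 2.13 and Il1b at 0.876 TPM. The ranges of Casp1 and Il18 overlap, whereas every library had less Gsdmd than Il18 and less Pycard than Gsdmd in TPM, without overlap of the ranges. In CPM, which do not divide by length, these ranges overlap, at 26.8 to 36.2 for Il18, 30.1 to 50.4 for Gsdmd and 29.3 to 43.5 for Pycard. Their TPM divide by 1031, 2377 and 3800 bases. From Pycard down, each gene's range overlaps that of the next. The lengths behind the TPM matter for this order. They equalled the union of exons in GENCODE M21 for 9 genes, but for Casp1 the TPM imply 3136 bases, where the M21 gene has 1497. The union exceeds the longest coding transcript 2.59-fold for Casp4, 2.51-fold for Il1rap and 2.24-fold for Il1rn, whose TPM are lower for it.

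Beyond the 10 genes, 69 further genes of the pathway were listed, of which 48 were tested. Of these, 27 were positive and 21 negative. The median was 0.04 on the log2 scale, 0 passed edgeR or DESeq2, where 0.00724% and 0.268% of all genes did, and 4 had an unadjusted p under 0.05, where 5.79% of all genes did. The genotypes did not overlap for 4 of the 48, where 12.1% of all genes tested did not overlap.

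All 13 genes of receptor signalling were tested. Their median log2 fold change was -0.03, with 6 positive and 7 negative. Tollip, an adaptor that restrains IL-1 and Toll-like receptor signalling, had 214, 229 and 250 CPM in Ts1Cje replicates 1 to 3, against 149.98, 172 and 201 CPM in wild-type replicates 1 to 3. The genotypes did not overlap, with a log2 fold change of 0.40 ± 0.15 (SE; adjusted p = 0.792, unadjusted p = 0.0313, edgeR). Peli2 and Peli1, ubiquitin ligases of the same signalling complex, had -1.39 ± 0.79 and -0.41 ± 0.29, and the kinase gene Map3k7 had 0.32 ± 0.24 (log2 fold change ± SE). Myd88, the adaptor through which the receptors signal, was at 66.0 ± 8.50 CPM in Ts1Cje and 64.1 ± 6.40 CPM in wild-type libraries (SD, n = 3 each).

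Of 20 other sensors and regulators, 15 were tested. Their median log2 fold change was 0.09, with 8 positive and 7 negative. Txnip, a protein of redox and glucose metabolism that can bind NLRP3, had 170, 88.3 and 168 CPM in Ts1Cje replicates 1 to 3, against 792, 616 and 132 CPM in wild-type replicates 1 to 3. Wild-type replicates 1 and 2 were high and replicate 3 lay among the Ts1Cje libraries, with a log2 fold change of -1.85 ± 0.60 (SE; adjusted p = 0.792, unadjusted p = 0.0157, edgeR). Nlrc3, which dampens innate signalling, had 43.7, 51.9 and 34.81 CPM in Ts1Cje replicates 1 to 3, against 14.2, 27.8 and 34.75 CPM in wild-type replicates 1 to 3. The groups do not overlap, but only by the gap between the third libraries, and the log2 fold change was 0.76 ± 0.33 (SE; adjusted p = 0.792, unadjusted p = 0.0487, edgeR). Nlrp1a, another sensor, had 1.23 ± 0.87 without overlap, and Naip2, a sensor of bacterial secretion needles, had -0.43 ± 0.29 (log2 fold change ± SE). Both belong to families of similar copies, between which counting may have split reads. Mefv, Nlrp6 and Nlrp12 had no count in any library. Aim2, the sensor of DNA in the cytosol, was at 43.4 ± 4.47 TPM in Ts1Cje and 44.6 ± 8.36 TPM in wild-type libraries (SD, n = 3 each), above Nlrp3 in every library.

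Of 10 genes of other caspases, gasdermins and release, 5 were tested. Their median log2 fold change was 0.07, with 3 positive and 2 negative. Ninj1, which ruptures the membrane of dying cells after gasdermin pores have formed, had 255, 233 and 361.5 CPM in Ts1Cje replicates 1 to 3, against 435, 422 and 361.5 CPM in wild-type replicates 1 to 3. The third libraries of both genotypes had nearly the same level and the rest were lower in Ts1Cje, with a log2 fold change of -0.52 ± 0.20 (SE; adjusted p = 0.792, unadjusted p = 0.0316, edgeR). Serpinb1a, an inhibitor of proteases, had 1.63, 1.97 and 0.580 CPM in Ts1Cje replicates 1 to 3, against 0.243, 0 and 0.526 CPM in wild-type replicates 1 to 3, few counts throughout, without overlap. Chmp4b, of the machinery that repairs pores, had 0.14 ± 0.20 and Casp8, an initiator caspase, 0.07 ± 0.13 (log2 fold change ± SE). Among the other gasdermins, Gsdme was tested, at 3.06 to 8.02 TPM in Ts1Cje and 3.71 to 7.54 TPM in wild-type libraries. Gsdmc had 0, 6 and 38 counts in Ts1Cje replicates 1 to 3, against 0, 2 and 4 in wild-type replicates 1 to 3, and did not pass the filter. Gsdma, Gsdma2 and Gsdma3 had no count.

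**Figure D4:**
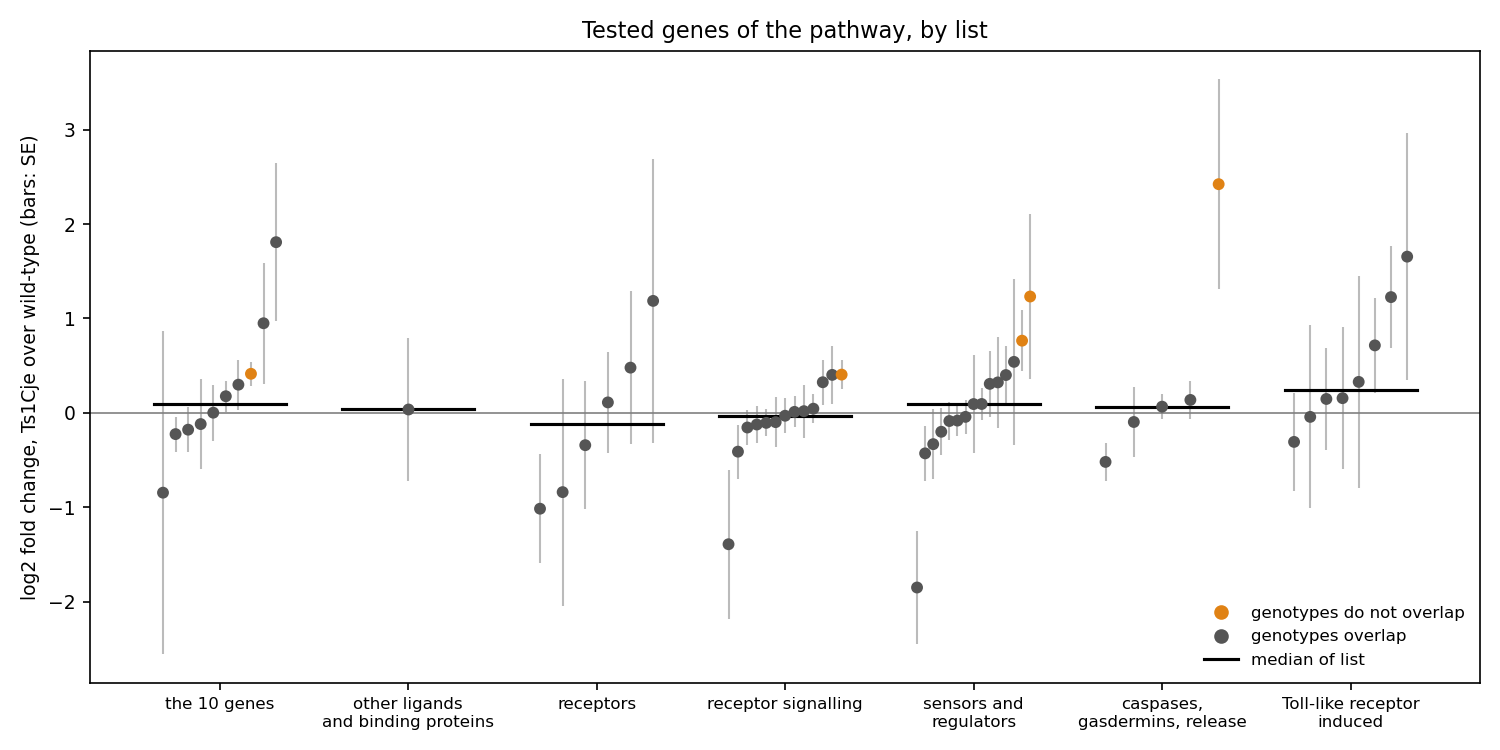
Log2 fold change of Ts1Cje over wild-type, with bars of 1 SE, of every tested gene in the 10-gene set and in 6 other lists of the pathway; orange points have genotypes that do not overlap and black lines are list medians. The medians lie between -0.12 and 0.24, and 5 points are orange in all.

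Genes that Toll-like receptors induce together with Il1b formed the last list. Of 10 listed, 8 were tested. Their median log2 fold change was 0.24, with 6 positive and 2 negative. Ts1Cje replicate 3, which had the most Il1a and Nlrp3, was the highest library for 4 of the 8, namely Tnf, Nfkbia, Cxcl1 and Cxcl2. Among the 10 members it was the highest library for 2, and Ts1Cje replicate 1 for 4. The share of all genes tested that were highest in Ts1Cje replicate 3 was not counted, so 4 of 8 cannot be judged against it. Tnf, the cytokine, had 8.93, 10.6 and 30.0 CPM in Ts1Cje replicates 1 to 3, against 7.77, 14.7 and 7.70 CPM in wild-type replicates 1 to 3. Cxcl2, a chemokine for neutrophils, had 3.55, 3.31 and 33.4 CPM in Ts1Cje replicates 1 to 3, against 0.971, 16.7 and 14.4 CPM in wild-type replicates 1 to 3. The genotypes overlap for both, and Tnf had a log2 fold change of 0.71 ± 0.51 (SE; adjusted p = 0.820, edgeR). The list did not move as one. Acod1, which makes itaconate in activated macrophages, had 16.7, 6.85 and 2.63 CPM in Ts1Cje replicates 1 to 3, against 1.29, 20.8 and 4.88 CPM in wild-type replicates 1 to 3, so that Ts1Cje replicate 3 was among the lower libraries. Il6 had 4 counts in Ts1Cje replicate 3 and 0 elsewhere, and Il12b had no count. The smallest p of the list was that of Cebpb, a transcription factor of macrophage activation that was highest in Ts1Cje replicate 1 at 8.85 CPM, at 1.23 ± 0.54 (log2 fold change ± SE; adjusted p = 0.792, unadjusted p = 0.0556, edgeR). Cxcl1 had 1.65 ± 1.31 and Nfkbiz -0.31 ± 0.52 (log2 fold change ± SE).

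The genes whose profile was most like that of a member were found by the root mean square difference of log2 CPM, each gene centred on its own mean, over the 6 libraries and about 10796 genes with a mean log2 CPM above 1. For Nlrp3 the nearest were Pla2g7, Sos2, Myo19, Gpnmb and Eya1, at 0.08 to 0.19. For Il1rn they were Padi2, Src, 4930447F24Rik, Zbtb42 and Unc13b, at 0.63 to 0.71. For Il1b they were Selenop, Egr2, Cd5l, Fcgr2b and Btg2, at 0.76 to 0.93, where a profile with 2 libraries at 0 depends on the prior count. None of the other 9 members was among the 5 nearest of these 3 genes. Il1b, with a mean log2 CPM of -1.67, could not be among those of Il1rn or Nlrp3. With 5 places among about 10796 genes, absence from them tells little about the members.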

How the data were processed

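RNA from 6 samples was sequenced with a SMART-seq kit. The authors deposited raw counts per gene and TPM (counts over gene length, scaled to 1000000 in each library), each with a column per library. Per the submitters' processing notes, tools were FastQC 0.11.7, Trimmomatic 0.38, HISAT2 2.1.0 and featureCounts 1.6.3, on mm10. The deposited TPM equalled the counts over a length per gene (checked on 10036 genes). Coordinates are those of the files; 9 of the 10 genes have identical ones in GENCODE M21.

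Genotypes were compared on counts with edgeR 4.0.16 (R 4.3.3), genotype as the only term, filterByExpr (minimum count 10, total 15), TMM factors and Benjamini-Hochberg over 13821 genes, threshold 0.05. SE is the log2 fold change over the root of F. The ratio used an exact permutation test (scipy 1.17.1). Alternatives were DESeq2 1.42.0, limma 3.58.1 (voom, and log2 TPM with pseudocounts of 1 and 0.1), other scalings and filters, a replicate block and leaving out each library. The edgeR, DESeq2 and voom fits were tested on simulated counts, and the other steps were not. Per the rule fixed, all members are described and the 4 smallest p of each further list; genes named beyond these were picked with their values in view. Members and lists were chosen with earlier results of these data known.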

Additional observations from a re-analysis of the deposited data

How the results depend on the processing

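Over the alternatives run, 0 of the 10 genes and 0 of the other pathway genes passed the threshold in any of them. Among all genes edgeR called 1, against 3 with no filter, 44 with DESeq2, 0 with the replicate number as a block, and 1 to 6 with a library left out, the 6 without wild-type replicate 3. The labels do not say whether a replicate number is shared between genotypes. Deviations of same-numbered libraries from their genotype mean correlated at -0.29, -0.04 and -0.17 over 10797 genes. Within a genotype the deviations of a gene sum to 0, so these correlations cannot decide whether the numbers pair the libraries. Of 157 values of single genes under an alternative, 142 kept their sign and their side of the threshold and 15 turned round. Il1rap was -0.005 with RLE factors, -0.031 with upper-quartile factors, -0.012 with the stricter filter, -0.045 with limma-voom, -0.0403 on log2(TPM + 1) with or without a TPM minimum, -0.0698 on log2(TPM + 0.1), -0.069 with the replicate block and -0.36 to 0.20 with a library left out. Leaving out a library also turned Il1a (-0.17 to 1.40), Il1b (-3.70 to 1.11) and Nlrp3 (-0.76 to 0.12). The cause was not tested. Il1b had no value under the stricter filter or a TPM minimum of 1. The log2 difference of the antagonist to agonist ratio kept its sign at 0.03 to 2.59 with a library left out, 1.16 with a pseudocount of 1, 1.45 on CPM and 1.49 per base of coding transcript (chosen after seeing the data). A replicate block leaves this difference at 1.46 by arithmetic and is no check of it. Depth limits Il1b, Il1r1, Il1r2 and other genes with few counts. In every library Il1b had 46 counts or fewer, Il1r1 30 or fewer and Il1r2 14 or fewer.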
